A study of Mus musculus with 8 samples.

Results

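Of 19505 merged H3K9ac regions in mouse cerebellum, 1071 were held by both long peak lists of one genotype and by neither long list of the other. Of these, 899 were knock-in-only and 172 wild-type-only. H3K9ac is acetylation of histone H3 at lysine 9, and it was mapped by chromatin immunoprecipitation and sequencing with one antibody in 8 libraries. There were 4 libraries from C57BL/6 mice aged 9 weeks, heterozygous for the 266Q knock-in, which the series describes as symptomatic, and 4 from wild type mice of the same strain and age described as their littermates. Peaks had been called separately in each library by MACS. A region is the union of peaks from any of the 8 lists that overlap by 1 bp or more, and it is held by a library with a peak in it. The classes were chosen on chromosomes 1 to 19 and X, which carried 19362 of the regions. They require a peak in replicates 1 and 2 of one genotype and none in replicates 1 and 2 of the other. Replicates 1 and 2 were used because their lists were long, with 7735 to 11409 peaks and median widths of 1065 to 1246 bp, against 1266 to 5571 peaks and 132 to 148 bp in replicates 3 and 4. Nothing in the labels says that replicates came from separate mice, so any p measures the spread between these libraries. In tissue of many cell types, fewer cells of a type and less of the mark per cell cannot be told apart.

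H3K9ac is placed by acetyltransferases such as the Gcn5 enzyme of the SAGA complex and is concentrated at the promoters of active genes, just around the transcription start. Ataxin-7, the protein encoded by Atxn7, is a subunit of SAGA, and expansion of its glutamine tract causes spinocerebellar ataxia type 7, in which Purkinje cells of the cerebellum and photoreceptors of the retina are lost. Granule cells are by far the most numerous neurons of the cerebellum, and Purkinje cells, its output neurons, are few. The lists carried the marks of granule cells. Of 24 granule cell markers, 21 had a region of both knock-in long lists at an end of the gene. A region of both wild type long lists was there in 18. Over all 21887 protein-coding genes the counts were 7222 and 5493, and for 20 genes of rod photoreceptors, liver and muscle they were 2 and 1. Both knock-in long lists had such a region at 13 of 27 Purkinje cell markers and 3 of 15 interneuron and unipolar brush cell markers. For glia and vessels the counts were 3 of 18 astrocyte and Bergmann glia, 2 of 20 oligodendrocyte, 0 of 17 microglia and 1 of 13 vascular markers.

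The rule alone gave a share of 4.64% of regions for the knock-in-only class and 0.888% for the wild-type-only class. The 5.23-fold ratio of the classes depended on the lists. With the long lists cut to 7735 peaks each by score it was 1.75, from 400 and 228 regions. With only peaks scoring 100 or more it was 43.3, from 822 and 19. Without wild type replicate 2, the shortest of the long lists, it was 0.472, from 1337 and 2830, so that the wild-type-only class was then the larger one. Without wild type replicate 1 it was 2.90, from 2066 and 712.

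Promoters under these regions are shown first, because most knock-in-only regions lay on promoters and few wild-type-only regions did. The sequences are the 250 bases before the start from RefSeq (GRCm38.p6, the assembly that mm10 names), 5′ to 3′ on the gene's strand. Capitals mark matches, on either strand, to the GC box (GGGCGG), the CCAAT box (CCAAT), the TATA box (TATAAA), the full cAMP response element (TGACGTCA), the AP-1 site (TGANTCA), the canonical E-box (CACGTG), the ETS site (CCGGAAG), the NRF1 site (palindromic form) or the YY1 core (AAGATGG). The first 6 lay in knock-in-only regions and the last 3 in wild-type-only regions. They were chosen, after their values were seen, to span a Purkinje cell gene, stress genes, genes of the ribosome and translation, and the best-ranked knock-in-only region found in a short knock-in list and in no wild type list.
Homer3 (chr8:70282749-70282998, + strand): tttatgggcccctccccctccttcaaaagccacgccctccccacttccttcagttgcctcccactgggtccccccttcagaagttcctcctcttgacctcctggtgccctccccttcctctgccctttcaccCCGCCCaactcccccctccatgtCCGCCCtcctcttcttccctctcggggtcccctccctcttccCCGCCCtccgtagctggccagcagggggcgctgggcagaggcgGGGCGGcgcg
Hspa5 (chr2:34771840-34772089, + strand): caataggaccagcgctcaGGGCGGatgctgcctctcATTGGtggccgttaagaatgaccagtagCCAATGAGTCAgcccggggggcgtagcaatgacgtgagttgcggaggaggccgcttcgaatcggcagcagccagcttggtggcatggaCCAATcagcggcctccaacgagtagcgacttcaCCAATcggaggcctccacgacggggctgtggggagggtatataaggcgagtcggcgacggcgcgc
Chac1 (chr2:119350992-119351241, + strand): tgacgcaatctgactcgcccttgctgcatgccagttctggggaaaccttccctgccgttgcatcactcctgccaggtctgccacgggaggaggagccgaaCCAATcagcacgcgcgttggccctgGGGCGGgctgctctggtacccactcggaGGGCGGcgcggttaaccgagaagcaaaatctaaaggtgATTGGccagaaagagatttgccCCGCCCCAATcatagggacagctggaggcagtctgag
Eef2 (chr10:81176381-81176630, + strand): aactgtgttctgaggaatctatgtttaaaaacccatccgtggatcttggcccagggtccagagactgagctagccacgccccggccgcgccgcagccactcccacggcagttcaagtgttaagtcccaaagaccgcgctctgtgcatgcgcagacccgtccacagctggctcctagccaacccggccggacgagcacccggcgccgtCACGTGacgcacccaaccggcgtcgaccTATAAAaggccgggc
Ppp1r14b (chr19:6974798-6975047, + strand): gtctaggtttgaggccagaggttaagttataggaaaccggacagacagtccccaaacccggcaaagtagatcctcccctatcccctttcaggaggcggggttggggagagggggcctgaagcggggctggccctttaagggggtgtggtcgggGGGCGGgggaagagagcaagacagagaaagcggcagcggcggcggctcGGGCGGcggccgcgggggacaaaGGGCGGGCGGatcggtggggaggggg
Rps16 (chr7:28350439-28350688, + strand): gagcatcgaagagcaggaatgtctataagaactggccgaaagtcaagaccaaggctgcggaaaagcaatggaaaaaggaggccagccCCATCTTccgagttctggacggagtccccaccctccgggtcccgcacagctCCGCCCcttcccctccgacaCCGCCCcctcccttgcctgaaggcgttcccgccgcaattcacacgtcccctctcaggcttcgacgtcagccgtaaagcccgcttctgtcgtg
Rps23 (chr13:90922872-90923121, + strand): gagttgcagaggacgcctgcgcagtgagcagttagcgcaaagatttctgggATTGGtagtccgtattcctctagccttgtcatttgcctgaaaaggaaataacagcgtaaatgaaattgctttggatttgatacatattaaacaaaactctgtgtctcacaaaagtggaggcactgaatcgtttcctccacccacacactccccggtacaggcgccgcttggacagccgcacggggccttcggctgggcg
Syde1 (chr10:78591965-78592214, - strand): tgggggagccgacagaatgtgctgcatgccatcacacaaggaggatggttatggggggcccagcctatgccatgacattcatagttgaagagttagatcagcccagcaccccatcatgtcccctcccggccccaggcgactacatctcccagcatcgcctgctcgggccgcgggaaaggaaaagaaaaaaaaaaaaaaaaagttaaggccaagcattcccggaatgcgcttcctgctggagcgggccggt
Dusp2 (chr2:127335909-127336158, + strand): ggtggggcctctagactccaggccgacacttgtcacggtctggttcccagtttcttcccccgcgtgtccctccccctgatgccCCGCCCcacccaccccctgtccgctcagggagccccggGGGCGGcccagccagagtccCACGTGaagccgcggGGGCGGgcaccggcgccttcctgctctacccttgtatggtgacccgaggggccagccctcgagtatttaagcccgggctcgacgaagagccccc

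Regions covered all 250 bases in 8 of these promoters and 229 bases at Dusp2. Hspa5, which encodes the endoplasmic reticulum chaperone BiP, had 4 CCAAT boxes, 1 GC box and 1 AP-1 site. Chac1, a glutathione-degrading enzyme gene induced by stress, had 3 CCAAT boxes and 3 GC boxes. Homer3, a scaffold of metabotropic glutamate receptors, and Ppp1r14b, a phosphatase inhibitor gene, each had 4 GC boxes, some of which overlap in Ppp1r14b. Eef2, which encodes the elongation factor 2, had 1 TATA box and 1 E-box. Among the wild-type-only promoters, the ribosomal protein gene Rps23 had 1 CCAAT box, Syde1 had none of the 9 motifs, and Dusp2, a phosphatase gene of the MAP kinase pathway, had 3 GC boxes and 1 E-box.

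Promoters of both classes were rich in CpG, though less so than promoters held by every long list. The RefSeq table, which is not complete and was used without chromosome 18, held 21045 windows of 300 bases (250 before and 50 after the start) of protein-coding genes on the other chromosomes of the rule. The median number of CpG dinucleotides in a window was 21 over the 674 windows under knock-in-only regions (quartiles 16 and 27) and 18.5 over the 30 under wild-type-only regions (12.5 and 24.8). It was 28 over the 5023 windows under regions of all 4 long lists (20 and 36) and 5 over the 11927 windows with no region of any list (2 and 12). The share with at least 10 CpG was 93.2%, 80%, 94.5% and 30.0% in the same order. Median GC content was 61.7% and 59.0% in the classes, 67.0% in the regions of all 4 long lists and 50.7% where no list had a region.

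In knock-in-only promoters the shares with an ETS site, a CCAAT box, an E-box, a cAMP response element, an NRF1 site or a YY1 core were above those of both promoters under regions of all 4 long lists and all promoters, and the shares with a GC box, a TATA box or an AP-1 site lay between them. A GC box was in 67.4% of their windows, against 76.1% of windows under regions of all 4 long lists and 46.7% of all 21045. An ETS site was in 22.7%, against 15.2% and 11.7%. A CCAAT box was in 43.0%, against 31.8% and 38.5%. A TATA box was in 5.49%, against 4.42% and 12.7%. The E-box was in 11.3%, against 10.3% and 7.91%, the cAMP response element in 3.71%, against 3.42% and 2.26%, and the NRF1 site in 2.97%, against 2.55% and 1.34%. The YY1 core was in 7.27%, against 6.99% and 6.28%, and the AP-1 site in 3.86%, against 3.32% and 7.04%. Windows are not replicates, so these shares are a description. The 30 wild-type-only windows were too few to describe by motif, with a GC box in 56.7% and a CCAAT box in 50%.

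The classes differed most plainly in position. Of the 899 knock-in-only regions, 647 lay within 1 kb of an end of a protein-coding gene (72.0%, exact 95% interval 68.9 to 74.9), 157 inside a gene beyond that distance (17.5%) and 95 outside (10.6%). Of the 172 wild-type-only regions, 29 lay at a gene end (16.9%, 11.6 to 23.3), 79 inside a gene (45.9%) and 64 outside (37.2%). Regions of all 4 long lists were at a gene end in 82.4% of 5465 cases. Of the 16616 regions of any long list, 53.0% were at a gene end, 28.4% inside a gene and 18.6% outside. The promoter windows gave the same order, with an overlap in 538 of 872 knock-in-only regions (61.7%) and 21 of 169 wild-type-only regions (12.4%) on chromosomes with windows. For regions of any long list this share was 45.0%. Promoter windows of at least 2 genes on opposite strands were overlapped by 53 knock-in-only regions (6.08%) and 5 wild-type-only regions (2.96%). The share was 5.94% of regions of all 4 long lists and 3.98% of regions of any long list.

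The contrast depended on knock-in replicate 1. Without it the share at gene ends was 41.2% of 2863 knock-in-only regions and 50.1% of 429 wild-type-only regions, so the order of the classes turned. Without any other long list the order stayed, at 60.7 to 74.3% against 10.0 to 25.1%. The lists themselves differed: 74.1% and 64.6% of the regions held by knock-in replicates 1 and 2 were at gene ends, and 56.0% and 73.7% of those held by wild type replicates 1 and 2. The share was thus high in 1 library of each genotype and lower in the other. Just outside the wild-type-only class stood regions held by both wild type long lists and 1 of the knock-in long lists. Of the 252 held by knock-in replicate 1, 72.2% were at gene ends (66.3 to 77.7), and of the 200 held by knock-in replicate 2, 31.5% (25.1 to 38.4). Just outside the knock-in-only class, the share was 68.3% of the 1156 regions held also by wild type replicate 1 and 79.0% of the 438 held also by wild type replicate 2.

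**Figure D1:**
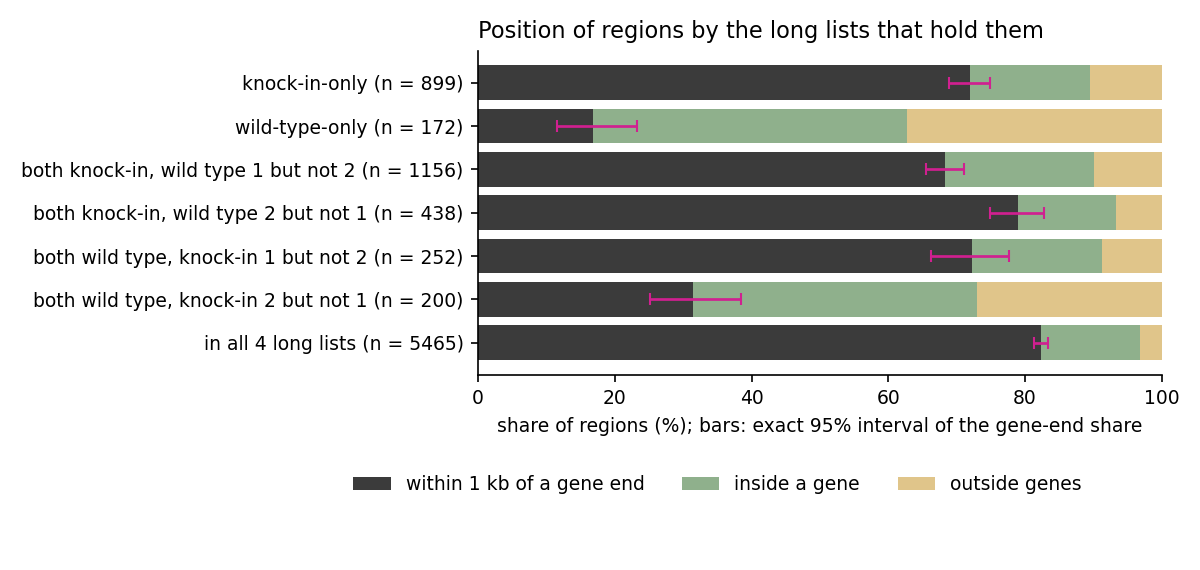
Position of regions by the long lists that hold them: the share (%) within 1 kb of a gene end, inside a gene and outside genes, with the exact 95% interval of the gene-end share and the number of regions. Knock-in-only regions were at gene ends in 72.0% of cases and wild-type-only regions in 16.9%, and regions missing only from knock-in replicate 1 had the other low share, 31.5%.

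Members of both classes ranked low in their own lists. The deposited score was used only as a percentile within a list, where 100 is the strongest peak, and a region with several peaks takes the highest. Knock-in-only regions had a median percentile of 24.8 in knock-in replicate 1 and 31.5 in replicate 2. Wild-type-only regions had 32.1 in wild type replicate 1 and 19.8 in replicate 2. Regions of all 4 long lists had 73.7, 74.8, 74.7 and 63.4 in the same lists. The mean over the 2 own lists was above 50 in 68 knock-in-only regions (7.56%) and 10 wild-type-only regions (5.81%), and no knock-in-only region was above percentile 75 in both lists, against 2 wild-type-only regions. These lists chose the members, so the ranks are a description.

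Regions 1 list away from a class ranked between. Those held by both knock-in lists and by wild type replicate 1 alone had medians of 39.0 and 44.2 in the knock-in lists, and those held by wild type replicate 2 alone had 40.4 and 44.7. Those held by both wild type lists and by knock-in replicate 1 alone had 41.4 and 30.7 in the wild type lists, and with knock-in replicate 2 alone 46.8 and 25.2. Members were also narrower than regions of all 4 long lists, with median widths of 1154 bp in the knock-in-only and 1062 bp in the wild-type-only class against 1809 bp. The peaks of the 2 own lists overlapped each other directly in 898 of 899 and in 172 of 172 members. A long-list peak of the other genotype lay within 1 kb of 49 knock-in-only regions (5.45%) and 13 wild-type-only regions (7.56%), and the median distance to the nearest was 29032 and 33631 bp.

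**Figure D2:**
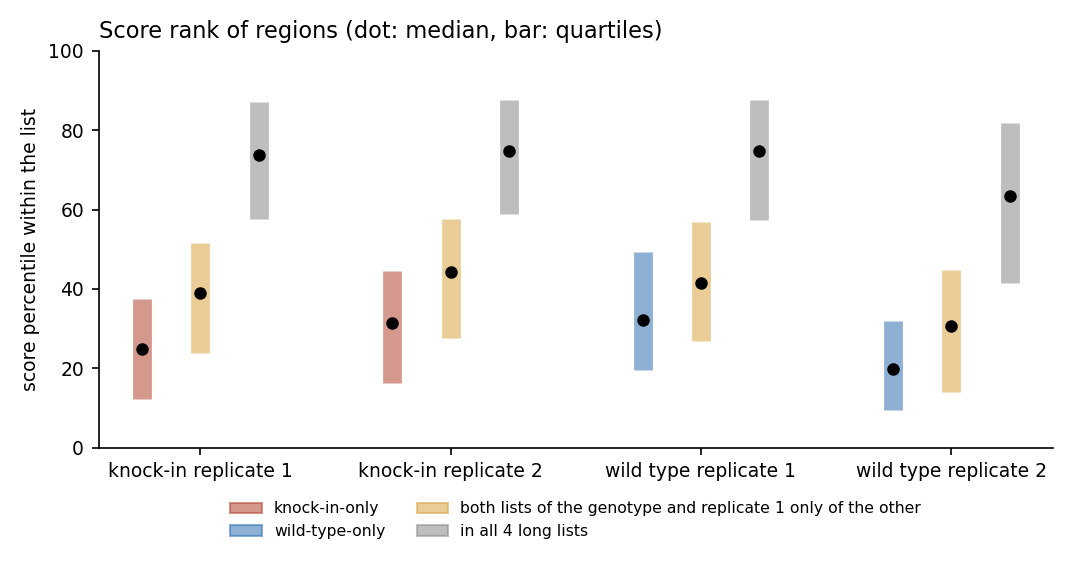
Score percentile within each of the 4 long lists (y axis, median and quartiles) for regions of one genotype only, for regions held also by replicate 1 but not 2 of the other genotype, and for regions of all 4 long lists. In every list the class members lay lowest, with medians of 19.8 to 32.1, and regions of all 4 lists highest, with 63.4 to 74.8.

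The rule asked nothing of peaks in replicates 3 and 4, which gave the one comparison outside it. Their peaks did enter the merging that set the borders of regions, and merging the 4 long lists alone gave 898 and 172 members. Of the 899 knock-in-only regions, 34 had a peak in knock-in replicate 3 (3.78%, exact 95% interval 2.63 to 5.25), 11 in knock-in replicate 4 (1.22%, 0.612 to 2.18). Peaks of wild type replicate 3 lay in 15 of them (1.67%, 0.937 to 2.74), and peaks of wild type replicate 4 lay in 10 (1.11%, 0.535 to 2.04). Of the 172 wild-type-only regions, 17 had one in knock-in replicate 3 (9.88%, 5.86 to 15.4), 14 in knock-in replicate 4 (8.14%, 4.52 to 13.3). Peaks of wild type replicate 3 lay in 23 (13.4%, 8.67 to 19.4), and peaks of wild type replicate 4 lay in 18 (10.5%, 6.32 to 16.03). All 4 short lists therefore held a larger share of the wild-type-only class than of the knock-in-only class. Of the regions of all 4 long lists, knock-in replicates 3 and 4 held 43.2% and 4.41%, and the wild type ones 24.3% and 7.12%.

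The odds of a peak in a knock-in-only against a wild-type-only region were taken within each library and were less low in the knock-in libraries. On the log2 scale the knock-in libraries stood at -1.50 (replicate 3) and -2.82 (replicate 4). The wild type libraries stood at -3.17 (replicate 3) and -3.34 (replicate 4), with no overlap of genotypes. The means were -2.16 ± 0.94 (SD, n = 2) and -3.25 ± 0.13 (SD, n = 2), a difference of 1.09. The two-sided exact permutation p was 0.333, the smallest that 2 libraries against 2 can give, so the difference did not pass a threshold of 0.05 and could not have. The short lists also differed in length and in the share of their regions at gene ends (52.4% and 20.6% for knock-in, 45.7% and 25.9% for wild type), as did the classes, and the part of this in the odds was not tested. Leaving out 1 library moved it most for knock-in replicate 1 (0.21), then knock-in replicate 3 (0.43), knock-in replicate 4 (1.76) and wild type replicate 1 (0.59).

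Counted by region, 33 knock-in-only regions (3.67%) had a peak in knock-in replicate 3 or 4 and in neither wild type replicate 3 nor 4, and 13 the reverse (1.45%). Among the 16616 regions of any long list the same patterns made up 11.0% and 5.20%, so the ratio of the patterns was in the same direction in the background. Of the wild-type-only regions, 19 (11.0%) followed wild type and 15 (8.72%) knock-in, and 15 more had a peak in both. Most members, 844 and 123, had a peak in none of the 4 short lists.

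**Figure D3:**
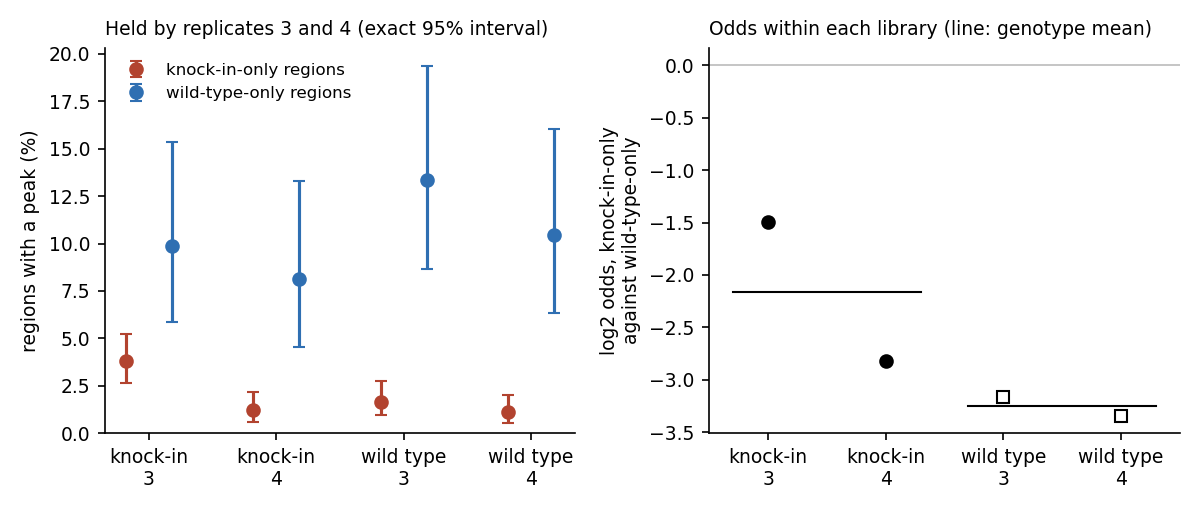
Left, share (%) of knock-in-only and wild-type-only regions with a peak in each library of replicates 3 and 4, with exact 95% intervals that cover counting error only. Right, log2 odds of a peak in knock-in-only against wild-type-only regions within each library, with lines at the genotype means of -2.16 and -3.25; both knock-in libraries lie above both wild type libraries.

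The 33 knock-in-only regions found in a short knock-in list and in no wild type list were mostly at gene ends, 20 of them, with 9 inside genes and 4 outside. The short list was replicate 3 for 29 and replicate 4 for 4. The best ranked (chromosome 19, 6974341 to 6975915) had its midpoint 79.5 bp from the start of Ppp1r14b. It also lay at an end of Plcb3, a phospholipase C gene of the inositol phosphate pathway. Its percentiles were 55.5, 58.2 and 20.8 in knock-in replicates 1 to 3, and a long-list wild type peak lay 4209 bp away. Rnf122, a ubiquitin ligase gene (chromosome 8, 31110793 to 31112598), had 48.7, 59.1 and 65.0. Mblac1 and Cnpy4 shared a region (chromosome 5, 138193852 to 138195281) at 59.1, 48.0 and 30.1. All 3 had middling ranks in the long lists.

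Among the others, Chac1 (chromosome 2, 119350689 to 119352478) had percentiles of 27.7, 67.7 and 39.2, high in replicate 2 and low in replicate 1. The region in Cyth1, which encodes an exchange factor for ARF GTPases (chromosome 11, 118201374 to 118203406), had 67.1, 33.7 and 24.4, the opposite order of the long lists. Its midpoint was 340.5 bp from an annotated start of Cyth1. Vstm2a (chromosome 11, 16256842 to 16258365) had 42.3, 33.4 and 69.3, and Abcf1, a translation factor gene (chromosome 17, 35968598 to 35970349), 46.2, 23.5 and 45.4. Further down, Relb, an NF-κB subunit gene (chromosome 7, 19628562 to 19629668), had 28.9, 35.1 and 43.6. Miga1, Mrrf with Rbm18, and BC034090 were also at gene ends, and Ppp1r12b was inside its gene with its short-list peak in replicate 4.

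The top of the knock-in-only class by score held gene ends of many functions. After a region at ribosomal RNA sequence, described below, came Zfand6, a zinc finger protein gene (chromosome 7, 84689179 to 84690524), at percentiles 71.0 and 61.3 in knock-in replicates 1 and 2. Alms1, a centrosome and cilium gene (chromosome 6, 85587086 to 85588864), had 50.6 and 79.6. Rps16, a protein of the small ribosomal subunit (chromosome 7, 28349863 to 28351521), had 50.9 and 74.6. Tonsl with Vps28, Bend4, Ctsa with Neurl2 and Dusp22 followed, with mean percentiles of 62.3 to 64.9. None of these 7 had a peak in replicates 3 or 4 of either genotype.

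The genes at whose ends knock-in-only regions lay numbered 775, or 3.54% of 21887 protein-coding genes and 10.7% of the 7222 with a region of both knock-in long lists at an end. The 38 genes of the wild-type-only class were 0.174% of all and 0.692% of 5493. Of the 775 genes, 709 had no region of a wild type long list at either end and 40 had another region held by all 4 long lists. The rule fixes these counts, and the lists below are described by them, with no test.

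The share of knock-in-only genes, 10.7% over all genes, varied among the lists. Of 14 proteasome subunits with a region of both knock-in long lists, 5 had a knock-in-only one (35.7%). These were Psma3 and Psma5 of the core's outer rings, Psmb5, a catalytic subunit, and the ATPases Psmc4 and Psmc5 of the regulatory particle. Psmb5 had percentiles of 31.3 and 40.8 in knock-in replicates 1 and 2, Psmc4 12.6 and 45.9, Psma5 18.8 and 15.1, Psmc5 17.6 and 8.15, and Psma3 15.2 and 0.470. No subunit was high in both lists. By symbol, in families chosen after the data were seen, the share was 11 of 44 cytosolic ribosomal protein genes (25%), 5 of 21 complex I genes (23.8%), 10 of 48 Ccdc genes (20.8%), 27 of 149 Zfp genes (18.1%), 5 of 31 mitochondrial ribosomal protein genes (16.1%), 12 of 103 Tmem genes (11.7%) and 14 of 138 Slc genes (10.1%). With equal list lengths, where all genes had 6.74%, mitochondrial ribosomal protein genes had 1 of 18 (5.56%), Slc genes 4 of 108 (3.70%), and the other 5 families 7.06 to 20.7%. Ribosomal protein genes have processed pseudogenes, so some reads there may be uncertain in position, which was not examined.

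In 4 neuronal lists there was none. No knock-in-only region lay at an end of the 21 granule cell markers, 25 synaptic vesicle genes, 21 glutamate and GABA receptor genes or 17 potassium channel genes with a region of both knock-in lists. The median percentile of these genes' regions in the knock-in lists was 88.9, 71.9, 82.5 and 76.2, against 64.6 over all 7222 genes. It was 46.9 for proteasome subunits, 47.7 for cytosolic ribosomal proteins and 36.2 for complex I. The part of score rank in the counts was not tested. Leaving out 1 long list in turn gave up to 2 of 21 granule markers, 2 of 25 vesicle genes, 3 of 24 receptors and 3 of 17 potassium channels. All genes had 16.5 to 24.1% in these runs. With equal list lengths the counts were 0 of 21, 0 of 24, 0 of 18 and 1 of 15, and proteasome subunits had 2 of 10, beside 391 of 5805 genes (6.74%). At a score of 100 or more the counts were 0 of 20, 2 of 20, 1 of 18 and 0 of 13. Proteasome subunits then had 2 of 8, beside 817 of 5227 genes (15.6%).

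Purkinje cell markers had 3 of 13 (23.1%) at a median percentile of 75.6. Homer3 (chromosome 8, 70282342 to 70283785) had percentiles of 38.1 and 43.5 in knock-in replicates 1 and 2. Itpr1, the inositol trisphosphate receptor (chromosome 6, 108212617 to 108214048), had 29.4 and 4.67. Itpr1 was thus close to the bottom of the list of replicate 2. With equal list lengths the count was 1 of 9 (11.1%), against 6.74% of all genes. At a score of 100 or more it was 1 of 9 (11.1%), below the 15.6% of all genes. Calcium and mGluR1 signalling genes, whose regions also ranked high at a median percentile of 87.7, had 4 of 27 (14.8%). Homer3, Itpr1 and Plcb3 were among them, Plcb3 by the region it shared with Ppp1r14b. Ataxia genes had 3 of 22 (13.6%), Itpr1 and Eef2 among them. Eef2 (chromosome 10, 81176186 to 81178517) ranked higher, at 43.1 and 74.2.

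Response genes were in the class in small numbers, and the share over all genes was 10.7%. Immediate early genes, which follow neuronal activity, had 3 of 15 (20%), namely the AP-1 subunits Fosb and Junb and the Krüppel-like factor Klf4. Klf4 had percentiles of 38.2 and 37.0, Junb 52.1 and 0.683 and Fosb 7.23 and 24.7. The Fosb region (chromosome 7, 19301099 to 19302542) lay at the other end of the gene, and not at its start. Of 15 heat shock and unfolded protein response genes, 2 were members (13.3%). These were Hspa5 (chromosome 2, 34771462 to 34772934), at 45.7 and 46.5, and Chac1. Sterol genes had 2 of 8 (25%), among them Insig1, which holds back sterol synthesis, at 16.6 and 65.8. Of 22 acetyltransferases, deacetylases and readers, 3 were members (13.6%), close to the share over all genes. These were Hdac10, Sirt7, which shared its region with Pcyt2, and the corepressor scaffold Sin3a. The midpoint of the Sirt7 region was 7410.5 bp from the start of Sirt7, so the region lay at the other end of that gene. Of 24 SAGA and ATAC subunits, Mbip of the ATAC complex was the one member (4.17%), at 20.7 and 9.39. Markers of interneurons, astrocytes, oligodendrocytes, microglia and vessels had 0 of 3, 0 of 3, 0 of 2, 0 of 0 and 0 of 1.

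**Figure D4:**
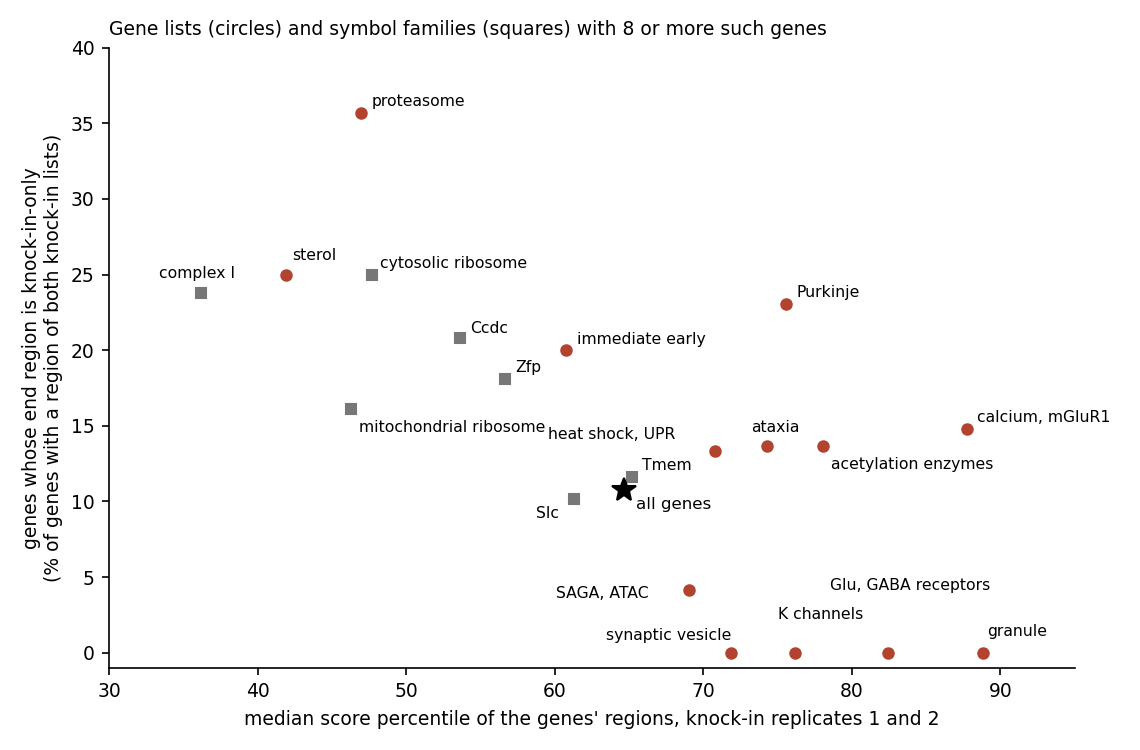
Share (%) of genes with a region of both knock-in long lists at an end whose region was knock-in-only (y axis), against the median score percentile of those regions (x axis), for gene lists (circles), symbol families (squares) and all genes (star, 10.7% at percentile 64.6). Proteasome subunits lie at 35.7% and percentile 46.9, 4 neuronal lists lie at 0, and Purkinje markers (23.1%) and calcium signalling genes (14.8%) lie above all genes at high ranks.

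Wild-type-only regions lay inside genes more than at their ends. They lay inside 73 genes, 8.08% of the 904 with an inside region of both wild type long lists. Knock-in-only regions lay inside 156 of 1146 (13.6%). An inside region was more than 1 kb from the gene's outer ends, so it could still lie at another annotated start. Midpoints were 237 bp from such a start in Gmps and 58.5 bp in Gne, both knock-in-only. In the wild-type-only class they were 32.5 bp from one in Insig2 and 353 bp in Araf. How many inside regions did so was not counted. Of the 13 granule cell markers with such a region, 3 had a wild-type-only one. These were Fat2, a giant cadherin of granule cell fibres, Grm4, a presynaptic glutamate receptor, and Rbfox3, the neuronal splicing factor known as NeuN, which held 2. Of the 11 with an inside region of both knock-in lists, 1 was knock-in-only, Nfix. Counting lists by inside regions was chosen after seeing the data. Plcb4, a phospholipase C of Purkinje cells, and the calcium release channel Ryr1 held wild-type-only regions too, and Camk2b, Ryr2 and Ryr3 knock-in-only ones.

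Some of these inside regions recurred in a short wild type list. Of the 19 wild-type-only regions with a peak in wild type replicate 3 or 4 and in no knock-in list, 9 were inside genes, 10 outside and 0 at gene ends. The region in Grm4 (chromosome 17, 27435817 to 27436957) had percentiles of 78.9, 5.30 and 75.3 in wild type replicates 1 to 3, high in replicates 1 and 3 only. The region in Fat2 (chromosome 11, 55264513 to 55265981) had 60.1 and 32.6 in replicates 1 and 2 and 88.4 in replicate 4. Ncald, a neuronal calcium sensor gene (chromosome 15, 37541406 to 37543214), had 72.0, 42.5 and 68.5 in replicates 1 to 3. Kndc1, a guanine nucleotide exchange factor gene of neurons (chromosome 7, 139906517 to 139908069), had 51.1, 19.8 and 12.4.

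The best ranked of the 19 was in Schip1 (chromosome 3, 68569075 to 68570601), at 76.2, 45.8 and, in replicate 4, 24.8. A long-list knock-in peak lay 1825 bp from it, and another region inside Schip1 (68586769 to 68587727) was knock-in-only. Of regions outside genes, the one nearest to Nsg2, a neuronal endosome gene (chromosome 11, 31989648 to 31990875), was 8829 bp from it, at 34.7, 41.3 and, in replicate 4, 26.2. Among the best ranked with no short-list peak were those in the imprinted gene Usp29 (chromosome 7, 6918186 to 6919818), at 65.7 and 43.2, and Scn8a, a voltage-gated sodium channel gene (chromosome 15, 100911645 to 100912524), at 53.3 and 49.1.

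Gene ends were few in the wild-type-only class. The 38 genes included Rps23, at percentiles 20.5 and 54.6 in wild type replicates 1 and 2, Dusp2, at 25.6 and 46.9, and Syde1, at 25.2 and 26.05. Neurod1, the granule cell transcription factor, was 1 of 18 granule markers with an end region of both wild type lists. Its wild-type-only region (chromosome 2, 79451452 to 79452548) ranked at 50.4 and 2.16 and was 99 bp from a long-list knock-in peak, so this region sat next to one that the knock-in lists held. The midpoint was 4636.5 bp from the start of Neurod1, so the region lay at the other end of the gene.

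The strongest members of both classes were also held by short lists of the other genotype. The strongest wild-type-only region ran over 38927 bp near the start of chromosome 9 (2999743 to 3038669), 296562 bp from the nearest protein-coding gene, Alkbh8, with an annotated copy of Mir101c in it. It stood at percentile 99.99 in both long wild type lists and at the top, 100, of both short ones, and at 100 in knock-in replicate 4 as well. Knock-in replicates 1, 2 and 3 had no peak there. The peak was 38424 to 38927 bp wide in every list that held it, though the median widths of the short lists were 132 to 148 bp. The next, on chromosome 14 (19415073 to 19419975), was at 99.98, 99.99, 99.9 and 99.9 in wild type replicates 1 to 4 and at 68.6 in knock-in replicate 4. The next after it lay in Cdk5rap2 (chromosome 4, 70377848 to 70378912), at 69.7, 87.3, 94.98 and 92.5 in wild type and 84.9 in knock-in replicate 4.

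The strongest knock-in-only region behaved alike with the genotypes exchanged. It covered 6264 bp on chromosome 17 (39842776 to 39849039) over the ribosomal RNA gene copy Rn18s-rs5, at 67.1, 99.5, 98.1 and 99.6 in knock-in replicates 1 to 4. Wild type replicates 3 and 4 held it as well, at 95.9 and 24.8, while replicates 1 and 2 did not. Each of these 4 regions was therefore in at least 1 list of the other genotype outside the rule. Ribosomal RNA genes are present in many copies, so reads there are uncertain in their position.

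Both classes were spread over all 20 chromosomes, with a departure on X. Per 100 regions of all 4 long lists on the same chromosome, knock-in-only regions numbered 12.6 to 21.6 on the autosomes, lowest on chromosome 16 and highest on chromosome 11, and 42.03 on X, from 29 and 69 regions. Wild-type-only regions numbered 1.55 to 4.49 on the autosomes and 4.35 on X, from 3 regions. On chromosome 14, which carries Atxn7, the figures were 16.3 and 2.63. Over all autosomes the knock-in-only figure was 16.1. X stayed above the autosomes in each alternative tried after seeing the data. With equal list lengths the figures were 17.9 and 8.40, with a score of 100 or more 62.5 and 24.4. Leaving out 1 long list in turn gave 37.9 to 98.6 on X against 19.9 to 49.8.

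Peaks on X made up 1.79% of the list of knock-in replicate 1 (exact 95% interval 1.55 to 2.06) and 1.74% of replicate 2 (1.51 to 2.00), against 1.35% (1.15 to 1.58) and 1.37% (1.12 to 1.66) in wild type replicates 1 and 2. The short knock-in lists had 1.06% and 1.03%, below the short wild type lists with 1.14% and 1.21%, so the order of the genotypes was not the same there. Labels give no sex for the mice, and no library had a peak at Xist. The long lists of knock-in had 3 and 6 peaks on Y, and those of wild type 3 each. The short knock-in lists had 29 and 18, more than the short wild type lists with 8 and 6. The part of sex in the figure for X was not tested. Knock-in-only regions on X were at the ends of genes such as L1cam, a neuronal adhesion gene, and Smarca1, a chromatin remodeller gene, which were picked after their values were seen.

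**Figure D5:**
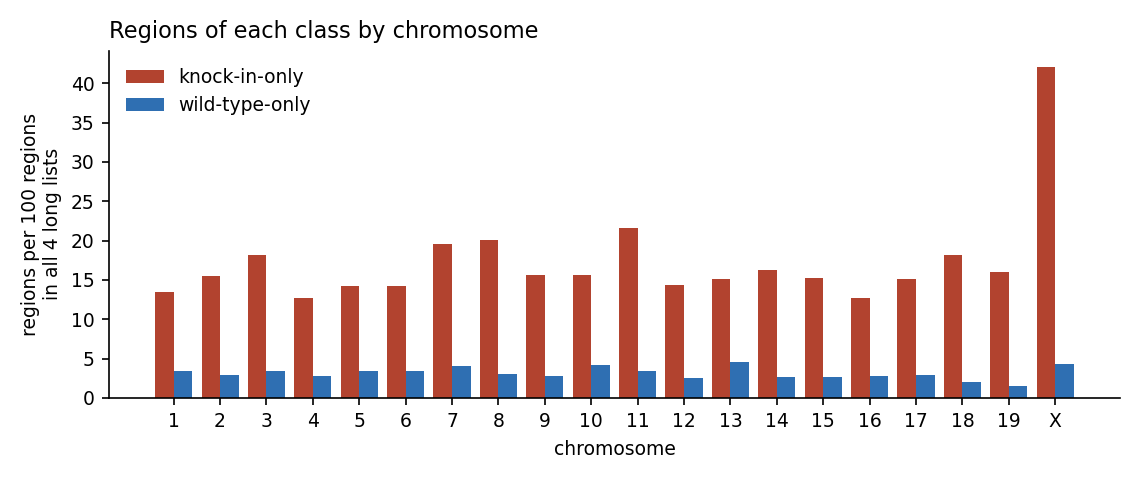
Knock-in-only and wild-type-only regions per 100 regions of all 4 long lists on the same chromosome (y axis), by chromosome (x axis). Knock-in-only regions stand between 12.6 and 21.6 on the autosomes and at 42.03 on X, and wild-type-only regions between 1.55 and 4.49.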

How the data were processed

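Each of the 8 libraries has 1 deposited peak list with start, end and score. Per the file headers, the authors called peaks with MACS in Galaxy. Per the submitters' processing notes, Bowtie2 and mm10 were used. Versions, settings and any input control: not given in the sources used here. Each deposited score is the authors' value per peak, its scale is not stated, and it was used as a rank within a list. Lists hold no read counts, so depth is unknown. Starts below 0 (15 of 52676 peaks) were set to 0. Peaks overlapping by 1 bp or more were merged, and merging was checked against bedtools and on simulated data. Gene ends (1 kb on each side) and promoters came from RefSeq tables of GRCm38.p6, and all 456 list genes matched. Shares have exact Clopper-Pearson 95% intervals, for counting error only. Log2 odds had 0.5 added to each cell and genotypes were tested by exact permutation, two-sided. Replicate numbers were taken from the titles. Same-numbered libraries deviated together over regions (r = 0.14, 0.20, 0.20 and 0.41 for numbers 1 to 4). So did some libraries of unlike number, with 0.31 for knock-in 1 and wild type 2 and 0.27 for knock-in 4 and wild type 3. The numbers also split long from short lists, so these values do not establish pairs. The main permutation test was unpaired, and a run with the numbers as a block was an alternative. Python 3.11.15, pandas 2.3.3 and scipy 1.17.1 were used.

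Regions were named by a rule: members also held by replicate 3 or 4 of their genotype alone (up to 15 a class by score), the 8 highest by score, the 4 widest, and gene list members (up to 4 a list). Not every region that the rule gives is named, and some list members are not reported here. Other genes in the text, such as Scn8a, Rbfox3, Plcb4, Syde1, Dusp2 and members of a list beyond 4, were named after their values were seen. The members, lists and rules were chosen with earlier results of these data known.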

Additional observations from a re-analysis of the deposited data

How the results depend on the processing

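The labels and lists limit these classes: 2 long lists a genotype, no read counts, and lists of unequal length. Leaving out a long list also changes the rule, since 1 list of that genotype then decides. Merging over the 4 long lists alone, merging peaks within 1 kb, asking for no peak of the other genotype within 1 kb, asking for direct overlap of the own peaks and using all sequences kept both counts within 850 to 899 and 159 to 174. With long lists of equal length the counts were 400 and 228, the shares at gene ends 79.2% and 28.5%, and with a score of 100 or more there were 19 wild-type-only regions and shares of 79.6% and 26.3%. With a window of 3 kb the knock-in-only share was 78.1%. Leaving out 1 long list each gave 1337 to 2863 knock-in-only and 375 to 2830 wild-type-only regions, shares at gene ends of 41.2 to 74.3% and 10.0 to 50.1%, and median score percentiles of 18.1 to 33.8 and 14.6 to 31.7. The cause was not tested. The log2 odds difference of 1.09 kept its sign in every alternative run, from 0.21 to 1.76, with exact permutation p between 0.333 and 1.00, and it was 1.09 with the replicate block, where the p was 0.5, the smallest that 2 pairs allow. Of the 899 and 172 members, 241 and 85 were also members with equal list lengths, and 117 and 4 with a score of 100 or more.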
